A study of Mus musculus with 18 samples.

Results

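Mural cells wrap the outside of blood vessels, and their transcripts were measured here in cells that had been sorted as endothelium. The 7 genes examined were chosen by name from the expression table of 16248 genes, with earlier results of these data known. Myh11, Acta2, Tagln and Cnn1 were taken as markers of vascular smooth muscle cells and Rgs5 and Pdgfrb as markers of pericytes, while Des is made by both. Whether any of them is exclusive to its class was not tested. All 7 passed the filter on low values, which kept 13983 genes.

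Endothelial cells (ECs) were isolated from female mice and profiled by bulk RNA-seq in 6 groups of 3 libraries, 18 in all. Wild-type mice without tumours gave the normal ECs, taken from their mammary fat pads. The methods of the study name no strain for these mice. MMTV-PyMT ECs came from the breast tumours of transgenic FVB mice. These tumours arise spontaneously because a mouse mammary tumour virus promoter drives the polyoma middle T oncogene in mammary epithelium. Implanted ECs came from tumours grown in the fat pad of FVB hosts after injection of cultured MMTV-PyMT tumour cells in Matrigel. One group of each tissue was injected locally with phosphate-buffered saline (PBS) and the other with cGAMP, a cyclic dinucleotide that activates the innate immune adaptor STING, and cells were collected after 3 h. ECs were gated as live CD31-positive, CD45-negative cells after enrichment on CD31 beads. The study was designed to ask why the spontaneous and the implanted tumour vessels respond differently to cGAMP. The 3 libraries of a group came from 3 mice in independent experiments, and which library belonged to which experiment was not given, so mouse and experiment both contribute to the spread that the p-values measure.

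Smooth muscle cells surround arteries, arterioles and larger veins and contract through smooth muscle myosin and actin. Pericytes sit within the basement membrane of capillaries and venules and depend on platelet-derived growth factor (PDGF)-B released by ECs. Tumour vessels are known for an uneven and loosely attached mural coat. Mural cells do not themselves belong to the CD31-positive lineage, and in bulk RNA fewer cells of a type and less RNA per cell cannot be told apart.

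The 12 endothelial markers sought, among them Pecam1, Cdh5 and Kdr, were all present, with a summed level of 902 to 2350 FPKM (fragments per kilobase of gene length, scaled to the depth of the library). Markers of other cells were present too. The 6 luminal epithelial markers summed to 250 to 947 FPKM and the 8 fibroblast markers to 82.6 to 741 FPKM. Under PBS the luminal sum was 392 to 523 in normal, 872 to 947 in MMTV-PyMT and 394 to 560 in implanted libraries. The part of this difference in the mural values was not tested. Of 8 leukocyte markers 7 were listed, summing to 17.2 to 213 FPKM. Of 8 skeletal muscle markers only Ckm and Mylpf were listed, and they summed to at most 1.41 FPKM, although skeletal muscle lies next to the fat pad. The libraries held between 9114649 and 12113336 reads assigned to genes. Of all pairs of libraries within a group, implanted cGAMP libraries 1 and 2 differed most, by a chi-square of 32.1 per gene.

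Contractile genes of smooth muscle are classically driven by serum response factor and its partner myocardin, which act at CArG boxes, short runs that begin with CC, end with GG and hold 6 mostly A or T bases between. RefSeq promoters on GRCm38.p6 were searched for such a run with at most 1 G or C among the 6 inner bases, in the 250 bases upstream of the start site, where the reverse complement has the same form so that both strands are covered. Such a run lay in 8.59% of 32851 promoter windows. Acta2 held 2, a number reached by 0.67% of the windows, while Cnn1, Rgs5 and Des held none. No window was used for Myh11, Tagln and Pdgfrb, so nothing is said of their promoters. In the list of 17 further smooth muscle genes, 3 of the 14 with a window held at least 1, and in the list of 17 further pericyte genes 0 of 13 did. The stretches are shown with the run in capitals and 10 bases on each side, because they are all the runs found in the promoters of Acta2 and the listed smooth muscle genes. No test of the difference from the pericyte promoters was made, and most of the smooth muscle windows held none. A match describes the letters and is not evidence of binding.
Acta2, bases 84 to 75 upstream, chr19:34255438-34255467, minus strand: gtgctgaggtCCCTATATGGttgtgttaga
Acta2, bases 34 to 25 upstream, chr19:34255388-34255417, minus strand: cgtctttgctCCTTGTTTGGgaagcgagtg
Myl9, bases 161 to 152 upstream, chr2:156775293-156775322, plus strand: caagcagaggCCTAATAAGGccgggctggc
Myl9, bases 99 to 90 upstream, chr2:156775355-156775384, plus strand: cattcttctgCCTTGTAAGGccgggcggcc
Pcp4l1, bases 116 to 107 upstream, chr1:171196365-171196394, minus strand: tccgtcttacCCTAGTTTGGaaatgcagca
Ldb3, bases 35 to 26 upstream, chr14:34588697-34588726, minus strand: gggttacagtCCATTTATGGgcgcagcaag

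The Acta2 runs stand upstream of the RefSeq start but inside the first exon of the longer GENCODE M21 transcript (34255290 to 34255590), so the annotations differ there. The Rgs5 window is given whole, all in lower case because it holds no such run, as the pericyte counterpart with the highest expression of the 7 genes. It covers chr1:169655251-169655500 on the plus strand and overlaps no exon of Rgs5.
Rgs5, 250 bases upstream: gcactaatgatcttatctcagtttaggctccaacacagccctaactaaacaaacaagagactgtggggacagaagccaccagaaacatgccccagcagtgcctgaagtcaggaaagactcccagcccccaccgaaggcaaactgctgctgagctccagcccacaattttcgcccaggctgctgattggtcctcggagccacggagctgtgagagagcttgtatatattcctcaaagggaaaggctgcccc

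Myh11 encodes the smooth muscle myosin heavy chain, the motor of contraction and the most restricted of the smooth muscle markers (chr16:14194535-14291372, minus strand). Its FPKM was 83.2, 69.5 and 85.3 in the normal PBS libraries, and 63.7, 55.6 and 66.0 in the normal cGAMP libraries. In MMTV-PyMT tumours it was 5.998, 4.01 and 3.39 with PBS, and 4.33, 5.79 and 4.82 with cGAMP. In implanted tumours it was 3.04, 3.73 and 4.08 with PBS, and 6.11, 4.46 and 3.63 with cGAMP. Every normal library lay far above every tumour library, and among the tumour groups the implanted PBS libraries lay wholly below the MMTV-PyMT cGAMP libraries, while the other pairs overlapped. Mean FPKM with PBS was 79.3 ± 8.61 (SD, n = 3) in normal ECs, 17.8 times the MMTV-PyMT mean of 4.46 ± 1.36 and 21.9 times the implanted mean of 3.62 ± 0.526.

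Acta2 encodes smooth muscle alpha-actin, the thin filament on which that myosin pulls (chr19:34241090-34255590, minus strand). FPKM was 336, 308 and 319 in normal PBS and 223.5, 259 and 240.5 in normal cGAMP libraries. MMTV-PyMT libraries gave 35.3, 32.1 and 35.1 with PBS, and 34.0, 33.2 and 58.4 with cGAMP. Implanted libraries gave 36.1, 45.8 and 42.0 with PBS, and 54.1, 46.7 and 33.8 with cGAMP. Acta2 was the most abundant of the smooth muscle genes in all 6 groups. Its mean with PBS was 321 ± 14.4 FPKM in normal ECs, 9.39 times the MMTV-PyMT and 7.77 times the implanted mean. Activated fibroblasts and myoepithelial cells also make Acta2.

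Tagln encodes transgelin (SM22), an actin-binding protein of smooth muscle (chr9:45929619-45936058, minus strand). FPKM was 52.9, 53.0 and 60.4 in normal PBS and 47.4, 43.6 and 46.5 in normal cGAMP libraries. MMTV-PyMT libraries gave 7.58, 6.64 and 6.34 with PBS, and 6.03, 7.59 and 8.70 with cGAMP. Implanted libraries gave 5.33, 7.56 and 6.47 with PBS, and 6.98, 9.75 and 4.92 with cGAMP. The normal and tumour ranges were again apart. Tagln overlaps the end of Pcsk7 and the antisense gene Gm48529. The libraries were made with a directional kit, but whether the counting used strand was not stated, so reads of the 2 strands in those spans may not have been told apart.

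Cnn1 encodes calponin 1, which regulates actomyosin in mature smooth muscle (chr9:22099216-22109630, plus strand), and was the least abundant member. FPKM was 9.10, 11.1 and 12.2 in normal PBS and 6.06, 8.84 and 8.58 in normal cGAMP libraries. MMTV-PyMT libraries gave 0.716, 1.08 and 1.64 with PBS, and 0.843, 0.913 and 3.34 with cGAMP. Implanted libraries gave 0.548, 0.619 and 0.555 with PBS, and 0.0437, 0.739 and 0.289 with cGAMP. The lowest of these values stood for 1 read, and the implanted PBS values for 14 or 15 reads each, so that Cnn1 in the implanted groups was close to the limit of detection.

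Rgs5 encodes a regulator of G-protein signalling that marks pericytes (chr1:169655501-169695813, plus strand), and it was the most abundant member in every group. FPKM was 365.5, 462 and 480.4 in normal PBS and 345, 480.0 and 467 in normal cGAMP libraries. MMTV-PyMT libraries gave 205, 169 and 137 with PBS, and 153, 230.4 and 181 with cGAMP. Implanted libraries gave 106, 131 and 132 with PBS, and 272.5, 181 and 92.2 with cGAMP. The normal libraries lay above all tumour libraries, but the gap was narrower than for the smooth muscle genes. The normal PBS mean of 436 ± 61.7 FPKM was 2.56 times the MMTV-PyMT mean (170.4 ± 34.0) and 3.54 times the implanted mean (123 ± 14.6).

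Pdgfrb, on chromosome 18, encodes the PDGF-B receptor that recruits pericytes to vessels and is also made by fibroblasts. FPKM was 65.3, 73.2 and 73.8 in normal PBS and 65.0, 85.8 and 101 in normal cGAMP libraries. MMTV-PyMT libraries gave 27.9, 25 and 20.3 with PBS, and 22.8, 35.9 and 24.7 with cGAMP. Implanted libraries gave 30.6, 34.9 and 33.7 with PBS, and 61.4, 49.98 and 22.5 with cGAMP. One implanted cGAMP library thus came within a few FPKM of the lowest normal library. The normal PBS mean was 2.90 times the MMTV-PyMT and 2.14 times the implanted mean.

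Des encodes desmin, the intermediate filament of muscle cells and of many pericytes (chr1:75360329-75368579, plus strand). FPKM was 24.6, 24.6 and 30.2 in normal PBS and 24.1, 21.9 and 28.6 in normal cGAMP libraries. MMTV-PyMT libraries gave 2.97, 2.78 and 2.96 with PBS, and 2.95, 4.69 and 3.67 with cGAMP. Implanted libraries gave 4.96, 5.11 and 4.64 with PBS, and 6.44, 6.43 and 2.53 with cGAMP. Des followed the smooth muscle genes in the size of its difference, 9.13 times lower in MMTV-PyMT and 5.40 times lower in implanted ECs. Its last 368 bases of span overlap the antisense gene Gm15179.

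**Figure D1:**
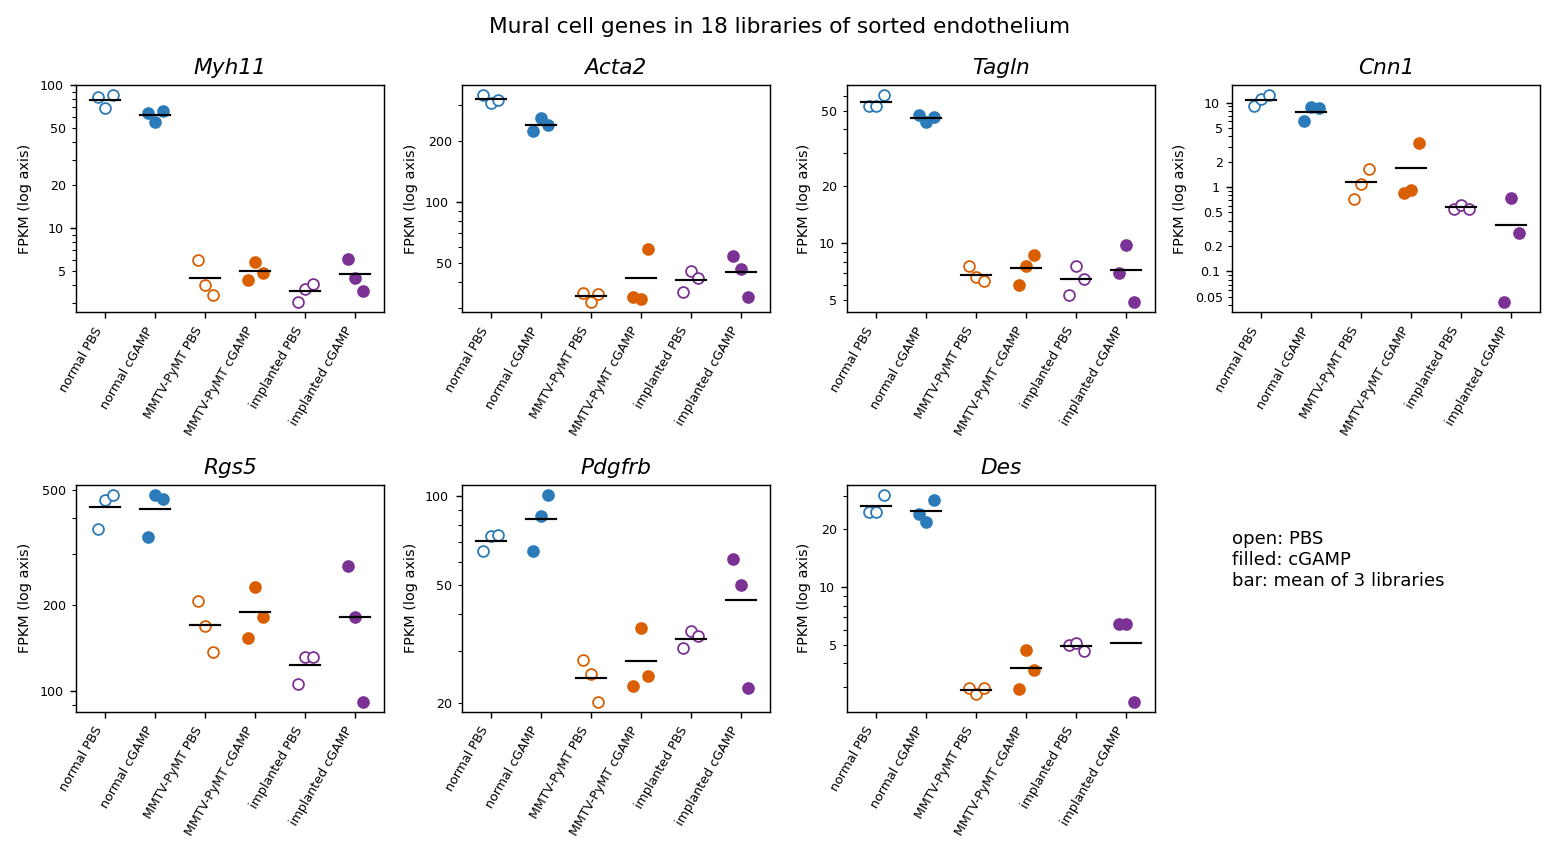
FPKM on a log axis for each of the 7 genes in the 6 groups, with 1 point per library (open for PBS, filled for cGAMP) and a bar at the mean of 3. The 6 normal libraries sit above all 12 tumour libraries for each gene, and the distance is widest for Myh11 and narrowest for Pdgfrb.

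The levels placed the normal groups in the same order for the 4 smooth muscle genes. Normal PBS stood first and normal cGAMP next, without overlap between their libraries, and the 4 tumour groups followed in an order that differed between genes. Among the tumour groups, implanted cGAMP had the highest mean for Acta2 (44.9 FPKM) and the lowest for Cnn1 (0.357 FPKM). Neighbouring tumour groups overlapped except for Acta2, where the MMTV-PyMT PBS libraries lay below the implanted PBS libraries, and for Cnn1, where the implanted PBS libraries lay below the MMTV-PyMT PBS libraries. For Rgs5 and Des, normal PBS also had the higher mean but overlapped normal cGAMP, and for Pdgfrb the cGAMP mean was the higher of the overlapping pair.

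In MMTV-PyMT against normal ECs under PBS, all 7 genes fell. Each passed an adjusted p under 0.05 and a change of at least 2-fold, in limma with Benjamini-Hochberg adjustment over 13983 genes, where 7.67% of all genes were lower by that rule. The libraries did not overlap for any of the 7, as was so in this direction for 32.3% of all genes. On the log2(FPKM + 1) scale, which understates the change of weakly expressed genes, Myh11 fell by 3.90 (SE 0.172, adjusted p 5.08e-10), the largest change of the 7. Acta2 fell by 3.20, Tagln by 2.85 and Cnn1 by 2.47. The pericyte genes changed less, with Rgs5 down by 1.36 (SE 0.286, adjusted p 0.0008) and Pdgfrb by 1.51 (SE 0.270, adjusted p 0.000203). Des fell by 2.81. The median change of the 7 was -2.81, beside 0.02 over all genes tested. The 95% intervals of Myh11 (-4.27 to -3.54) and Rgs5 (-1.97 to -0.75), the largest and smallest changes, did not meet. That of Cnn1 (-3.05 to -1.89) overlapped those of Rgs5 and Pdgfrb (-2.08 to -0.94), so the 2 classes were not apart for every gene. Of the 12 endothelial markers, 3 were also called lower here, Vwf (-2.24), Tek (-1.37) and Flt1 (-1.04), and 0 higher. Falls as large as those of Rgs5 and Pdgfrb were thus not limited to mural genes. When libraries were scaled by the endothelial markers, which were themselves lower in MMTV-PyMT ECs, Rgs5 (-0.66) and Pdgfrb (-0.82) no longer reached 2-fold, and the median of all genes moved by 0.55.

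In implanted against normal ECs under PBS, all 7 genes also fell and met the same rule, as did 5.71% of all genes in that direction. The libraries were again apart for all 7 (30.2% of all genes). Myh11 again changed most, by -4.12 (SE 0.172, adjusted p 1.55e-10). Acta2 and Tagln both fell by 2.93, and Cnn1 fell by 2.90. Rgs5 fell by 1.81 (SE 0.286, adjusted p 7.53e-05) and Des by 2.21. Pdgfrb fell by 1.08 (SE 0.270, adjusted p 0.00361), the smallest change of the 7. The median over the 7 was -2.90, beside 0.01 over all genes. Of the 12 endothelial markers, 2 were also called lower, Tek (-1.97) and Vwf (-1.90), and 0 higher, with a median change of 0.33 over the 12. Under endothelial scaling Pdgfrb changed by -0.97. This comparison shares its 3 normal libraries with the preceding one, so the 2 are not independent.

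The cGAMP libraries gave a comparison in separate libraries. In MMTV-PyMT against normal ECs under cGAMP all 7 genes were called lower (5.38% of all genes), with Myh11 at -3.40, Acta2 at -2.54, Tagln at -2.48, Cnn1 at -1.81, Des at -2.45, Pdgfrb at -1.56 and Rgs5 at -1.195. In implanted against normal ECs under cGAMP 6 of 7 were called lower (5.18% of all genes). Pdgfrb, at -0.99 (adjusted p 0.00538 in limma), fell just short of 2-fold. It came to -1.27 without implanted cGAMP library 1 and to -0.57 without library 3, and its adjusted p was 0.0531 in a limma fit of only the 6 libraries compared. Myh11 was at -3.47, Acta2 at -2.42, Tagln at -2.55, Cnn1 at -2.72, Des at -2.15 and Rgs5 at -1.36. Rgs5 came to -0.94 without the same library 3. The tumour libraries lay below the normal libraries without overlap for all 7 in both cGAMP comparisons, as they did for 26.3% (MMTV-PyMT) and 25.9% (implanted) of all genes.

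**Figure D2:**
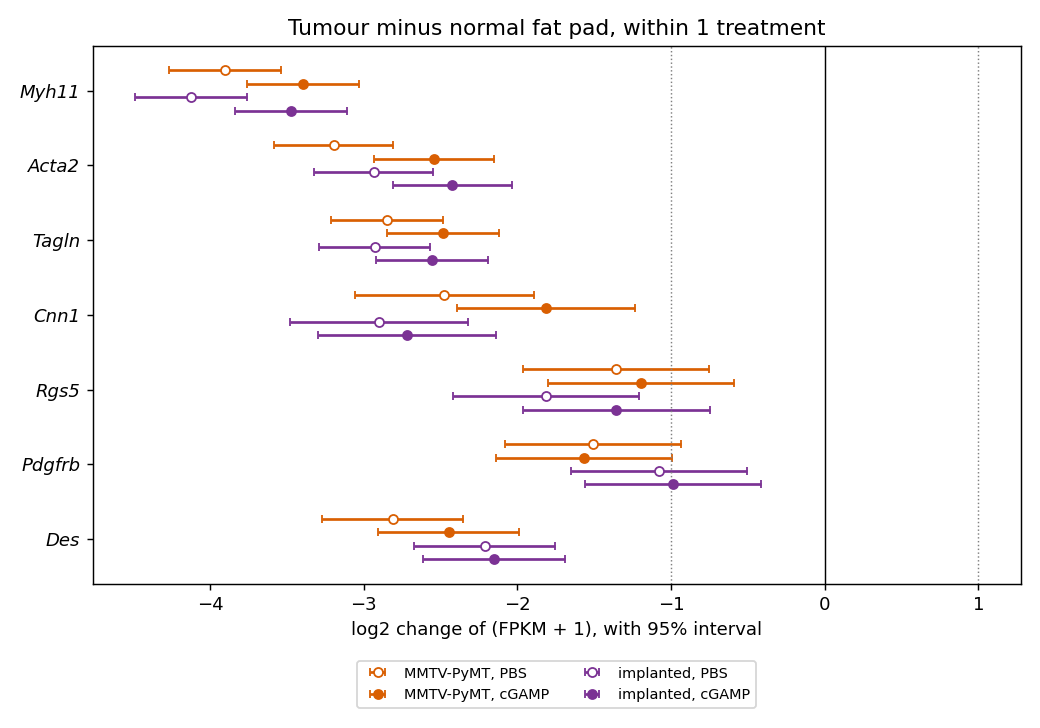
Difference of tumour minus normal ECs for each gene in log2(FPKM + 1), with 95% intervals from the limma fit, in MMTV-PyMT (orange) and implanted tumours (purple), with PBS (open) or cGAMP (filled). The intervals of Myh11, Acta2, Tagln, Cnn1 and Des lie wholly beyond the dotted 2-fold lines, and those of Rgs5 and Pdgfrb reach or cross them except for Rgs5 in implanted PBS.

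Myoepithelial cells, which form the outer layer of mammary ducts, also make smooth muscle myosin, actin, transgelin and calponin. The 6 myoepithelial markers (Krt5, Krt14, Krt17, Trp63, Oxtr and Krt15) were all listed and summed to 95.2 to 101 FPKM in normal PBS, 54.8 to 89.1 in MMTV-PyMT PBS and 25.2 to 43.5 in implanted PBS libraries. Krt5 was 33.2 FPKM on average in normal and 37.2 in MMTV-PyMT ECs under PBS, a log2 difference of 0.14, whereas Myh11 differed by -3.90 there. Trp63 differed by 0.03 in the same comparison, in which 2 of the 6 markers, Krt17 and Oxtr, were called lower (7.67% of all genes). In implanted ECs Krt5 fell by 1.82 and 5 of the 6 markers were called lower (5.71% of all genes). Oxtr, the oxytocin receptor, fell in both tumours, by 3.24 and 2.65. The fibroblast sum went the other way, from 122 to 149 FPKM in normal PBS to 163 to 256 in MMTV-PyMT and 286 to 325 in implanted PBS libraries. Col1a1 went from 33.8 FPKM on average to 90.5 and 186, while 1 of the 8 fibroblast markers was called lower (MMTV-PyMT) and 3 were (implanted). The part of these cells in the mural values was not tested.

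The balance between the 2 mural classes was followed in each library as the mean log2(FPKM + 1) of Myh11, Acta2, Tagln and Cnn1 minus that of Rgs5 and Pdgfrb. It was -1.46 ± 0.14 in normal PBS, -1.92 ± 0.21 in normal cGAMP, -3.13 ± 0.23 in MMTV-PyMT PBS, -3.10 ± 0.46 in MMTV-PyMT cGAMP, -3.23 ± 0.02 in implanted PBS and -3.54 ± 0.56 in implanted cGAMP libraries (SD, n = 3 each). The 6 normal libraries ranged from -2.07 to -1.31 and the 12 tumour libraries from -4.11 to -2.64, with no overlap. A p-value is not given for a score over chosen genes. The 4 smooth muscle genes were thus lower relative to Rgs5 and Pdgfrb in every tumour library than in any normal library. The wider lists were closer to each other, with a median change of -1.92 over 17 other smooth muscle genes and -1.74 over 17 other pericyte genes in MMTV-PyMT against normal ECs under PBS, and -1.75 and -1.23 in implanted ECs.

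Ratios within a library do not depend on how libraries were scaled. For every 100 FPKM of Rgs5 there were 66.3 to 92.0 FPKM of Acta2 in normal PBS libraries, 51.5 to 64.8 in normal cGAMP libraries and 14.4 to 36.6 in the tumour libraries. Under PBS this ratio was 17.2 to 25.6 in MMTV-PyMT and 31.9 to 34.8 in implanted libraries, whereas the score above overlapped between these groups. Myh11 per 100 FPKM of Acta2 was 21.5 to 28.5 in normal and 8.15 to 17.4 in tumour libraries, so the smooth muscle genes did not fall in proportion. Tagln per 100 of Acta2 overlapped between them, at 15.7 to 21.2 in normal and 12.9 to 22.9 in tumour libraries. Within the pericyte pair, Pdgfrb per 100 of Rgs5 was 13.6 to 15.6 in MMTV-PyMT libraries, 15.4 to 21.6 in normal libraries and 22.6 to 28.8 in implanted libraries. The implanted libraries did not overlap the others in this ratio.

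**Figure D3:**
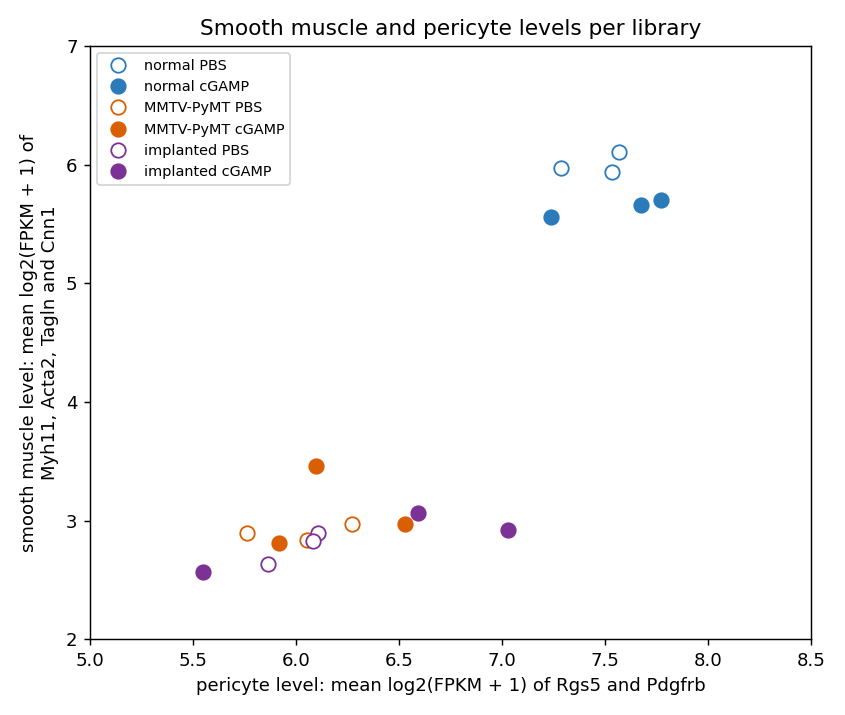
Mean log2(FPKM + 1) of the 4 smooth muscle genes against that of the 2 pericyte genes, with 1 point per library (open for PBS, filled for cGAMP). Normal libraries lie at the upper right, and the tumour libraries lie lower on both axes, spread along the pericyte axis with little change along the smooth muscle axis.

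The members also differed in how they varied between libraries of 1 group. Over the 18 deviations from group means, Rgs5 and Pdgfrb correlated at r = 0.958, Pdgfrb and Des at 0.871, Myh11 and Rgs5 at 0.715 and Myh11 and Acta2 at 0.324, while Myh11 and Cnn1 were at -0.375. Genes measured in 1 library share its scaling and composition, and these values are descriptions. For Rgs5 and Pdgfrb, the SD was highest in the implanted cGAMP group, at 90.1 and 20.0 FPKM. Its library 1 had the most Rgs5 and Pdgfrb and its library 3 the least of both. Fibroblast markers summed to 608 FPKM in library 1, 741 in library 2 and 307 in library 3, and endothelial markers to 2350, 1430 and 1730. Leukocyte markers summed to 213 FPKM in library 2, beside 52.7 and 44.9 in the other two. The part of this composition in the Pdgfrb spread was not tested.

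Treatment with cGAMP for 3 h called none of the 7 genes in any tissue, in limma with Benjamini-Hochberg adjustment, where it called 3.7% (normal), 2.56% (MMTV-PyMT) and 7.22% (implanted) of all genes. None passed an adjusted p under 0.05 alone either, as 31.9%, 12% and 39.1% of all genes did. At an unadjusted p under 0.05 there was 1 gene in normal ECs, Acta2, and 0 in each tumour. In the fit by voom on recovered reads the counts of called members were also 0.

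In normal ECs the cGAMP libraries lay below every PBS library for all 4 smooth muscle genes and for none of the other 3, while 28% of all genes tested were lower without overlap in this comparison. Acta2 differed by -0.41 (95% interval -0.80 to -0.03, adjusted p 0.0966), Cnn1 by -0.43 (-1.01 to 0.15), Myh11 by -0.35 (-0.72 to 0.01) and Tagln by -0.27 (-0.63 to 0.10). Rgs5 differed by -0.02 (-0.63 to 0.58), Pdgfrb by 0.22 and Des by -0.09. When the fit held only the 6 normal libraries, the adjusted p was 0.0129 for Acta2, 0.0372 for Myh11 and 0.0359 for Tagln, with changes still under 2-fold, so the call at 0.05 depended on which libraries shared the estimate of the spread.

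In MMTV-PyMT ECs the cGAMP differences of the 7 genes ranged from 0.10 (Tagln) to 0.27 (Des). The cGAMP and PBS libraries overlapped for all 7, whereas they were apart for 14.8% (higher) and 18.6% (lower) of all genes. In implanted ECs the differences ranged from -0.25 (Cnn1) to 0.43 (Rgs5, 95% interval -0.17 to 1.04), again with overlap for all 7 (22.4% of all genes were higher and 22.8% lower without overlap). Intervals of this width leave room for changes of up to about 2-fold in Rgs5, and the misses do not show that cGAMP had no effect. The cGAMP effects did not differ between tissues by the test of the difference, with 0 of 7 called in each of the 3 pairs of tissues (1.75%, 4.68% and 2.47% of all genes). At an unadjusted p under 0.05 there was Acta2 for MMTV-PyMT minus normal (0.65, adjusted p 0.133) and Myh11 for implanted minus normal (0.65, adjusted p 0.0759), by the same limma fit.

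**Figure D4:**
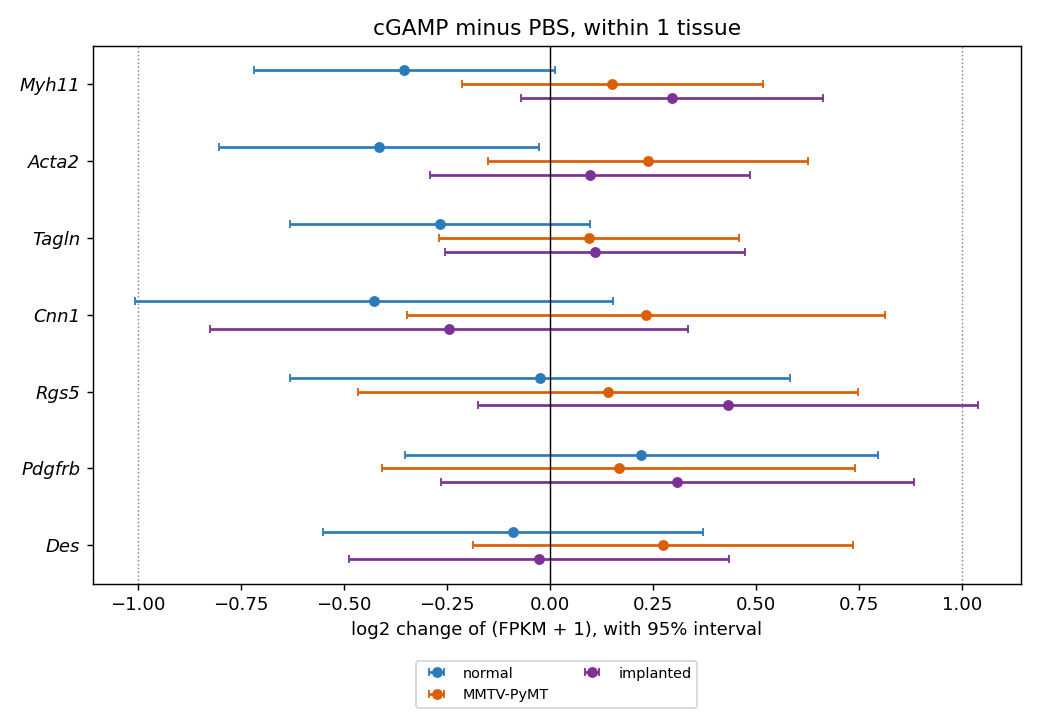
Difference of cGAMP minus PBS for each gene in log2(FPKM + 1), with 95% intervals from the limma fit, in normal (blue), MMTV-PyMT (orange) and implanted (purple) ECs. The smooth muscle genes lie left of 0 in normal ECs and, apart from Cnn1 in implanted ECs, right of 0 in the tumours, and none of the changes passed the adjusted test.

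Between the tumours, none of the 7 genes was called in implanted against MMTV-PyMT ECs under PBS (7.33% of all genes) or cGAMP (10.4%). Under PBS Des was higher in implanted ECs by 0.60 (95% interval 0.14 to 1.06, adjusted p 0.0343 in limma), under the 2-fold limit, and it was the only member with an unadjusted p under 0.05, while 45.5% of all genes passed the adjusted test. The implanted PBS libraries lay above all MMTV-PyMT PBS libraries for Acta2, Pdgfrb and Des (27.5% of all genes) and below them for Cnn1 and Rgs5 (30.9%). In a limma fit of only these 6 libraries, Rgs5 (-0.45, adjusted p 0.0375) and Pdgfrb (0.43, adjusted p 0.0159) passed as well. Under cGAMP Cnn1 was lower in implanted ECs by 0.90 (adjusted p 0.012 in limma), on values of 1 to 17 reads in the implanted libraries, where 50.9% of all genes passed. It was at -0.50 (adjusted p 0.0689) without MMTV-PyMT cGAMP library 3 and at -0.73 (adjusted p 0.0601) without implanted cGAMP library 1, and the adjusted p was 0.0758 with only the 6 libraries fitted. Pdgfrb differed by 0.58 (adjusted p 0.0864). For Myh11 the difference was -0.22 under PBS (95% interval -0.59 to 0.14) and -0.08 under cGAMP (-0.44 to 0.29).

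Further genes of each class were read from lists chosen by function, with earlier results of these data known. The same holds for all lists used here. Shares of all genes printed beside the list counts describe the background and do not make those counts an independent test. Of 17 other smooth muscle genes, 12 were called lower and 0 higher in MMTV-PyMT ECs under PBS, with a median change of -1.92, and 11 lower and 0 higher in implanted ECs, with a median of -1.75. Over all genes 7.67% (MMTV-PyMT) and 5.71% (implanted) were called lower. Myl9, the regulatory light chain of smooth muscle myosin, fell from 159.6 ± 4.74 FPKM to 19.4 ± 1.70 and 14.9 ± 3.25. Mylk, the kinase of that light chain, fell by 2.25 and 1.75 on the log2 scale. Tpm2 (-2.54 and -2.79), Mustn1 (-2.88 and -2.84), Pcp4l1 (-2.82 and -3.29), Synpo2 (-3.11 and -2.35), Lmod1 (-2.505 and -2.698), Nrip2, Casq2 and Pln fell in both tumours, and Actg2 was called in MMTV-PyMT ECs (-1.77) and was at -0.81 in implanted ECs. Smtn, among the 3 most abundant of the list when averaged over all libraries, was at 0.52 and 0.40. In normal PBS libraries it stood at 17.2 FPKM on average, below Mylk (42.15), Mustn1 (31.3) and Tpm1 (27.4) among others. Ldb3, which also holds a CArG-like run, was at 0.28 and -0.30. The run thus occurred in genes that fell and in 1 that was not called.

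Of 17 other pericyte genes, 11 were called lower and 2 higher in MMTV-PyMT ECs under PBS (median -1.74), and 9 lower and 1 higher in implanted ECs (median -1.23). The same shares of all genes, 7.67% and 5.71%, were called lower. Notch3, the Notch receptor of mural cells, fell from 133 ± 5.99 FPKM to 26.7 ± 3.17 and 22.8 ± 0.889. Gucy1a1 and Gucy1b1, the subunits of the nitric oxide receptor, fell by 3.11 and 2.77 in MMTV-PyMT and by 3.26 and 2.86 in implanted ECs. Rgs4 (-2.84 and -2.71), Ebf1 (-2.21 and -2.20), Vtn (-1.84 and -2.19), Ndufa4l2 (-2.02 and -1.43), Cox4i2 (-1.57 and -1.23) and Steap4 (-1.12 and -1.89) also fell in both. Cspg4, which encodes the pericyte proteoglycan NG2, fell by 1.86 in MMTV-PyMT ECs and was at -0.82 in implanted ECs, and Higd1b was at -1.74 and -0.97. Kcnj8 and Abcc9, the subunits of the potassium channel of pericytes, were at -0.51 each in MMTV-PyMT and 0.18 and 0.59 in implanted ECs and were not called. Mcam, which ECs also make, rose by 1.12 and 2.13, and Anpep rose by 1.30 in MMTV-PyMT ECs.

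**Figure D5:**
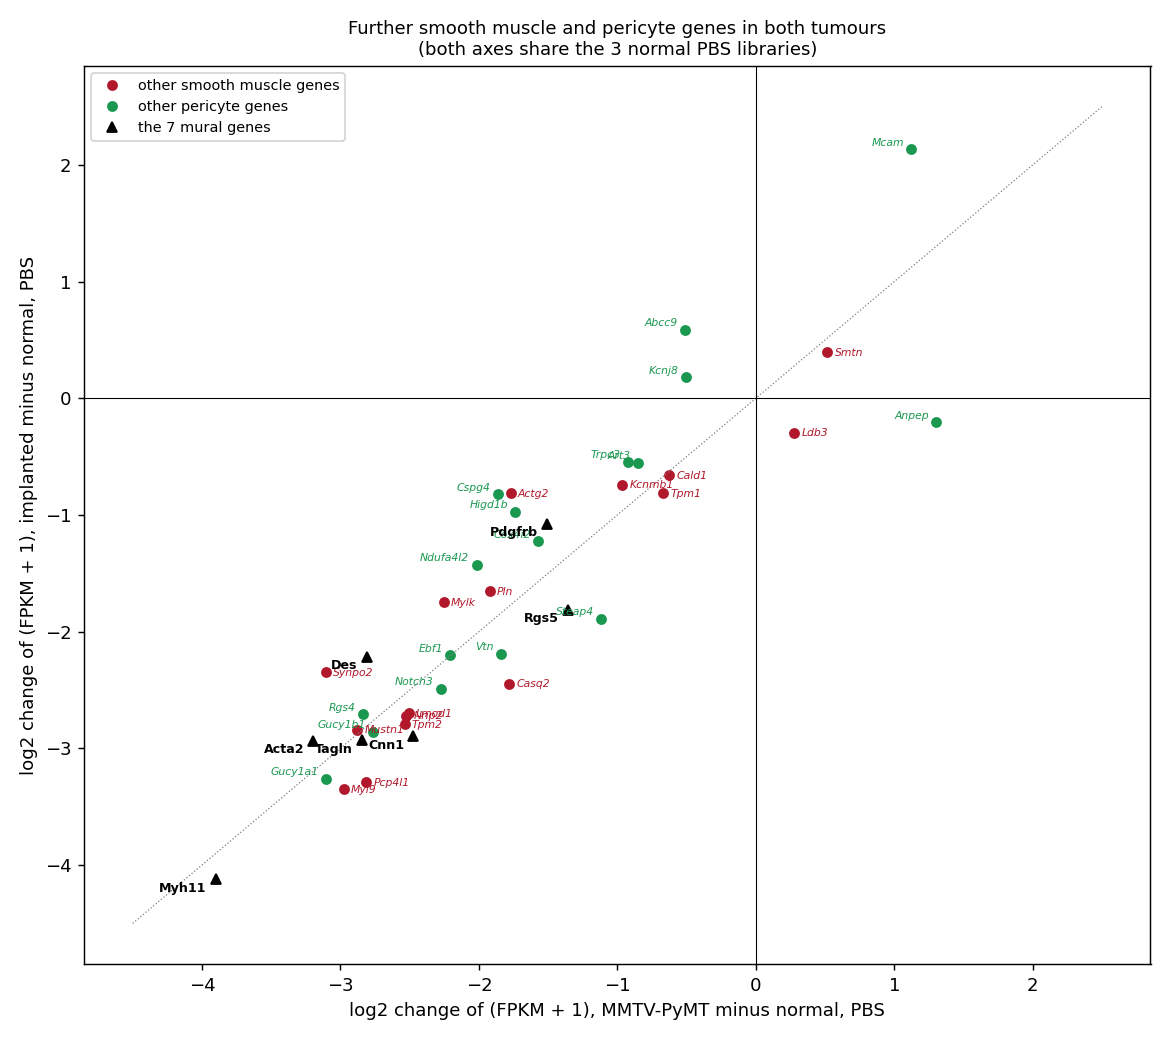
Change in implanted against change in MMTV-PyMT ECs, both minus normal under PBS in log2(FPKM + 1), for other smooth muscle genes (red), other pericyte genes (green) and the 7 genes named above (black triangles). Most points lie in the lower left, Myh11 lies lowest, and Mcam lies at the upper right, while both axes share the 3 normal PBS libraries.

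Among 9 regulators of the smooth muscle programme, 4 were called lower in MMTV-PyMT and 2 in implanted ECs under PBS (7.67% and 5.71% of all genes). Myocd, which encodes myocardin, fell from 3.73 ± 0.134 FPKM to 0.240 ± 0.113 in MMTV-PyMT and 0.264 ± 0.150 in implanted ECs (log2 changes -1.93 and -1.91). Klf4, a factor that opposes that programme and is also strongly expressed by ECs, fell from 112 FPKM by 2.32 and 2.695. Mrtfb (-1.01) and Tbx18 (-1.11) were called lower in MMTV-PyMT ECs and were at -0.96 and -0.95 in implanted ECs. Srf itself was at 0.17 and 0.12. The median of the 9 was -0.31 and -0.17.

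Under cGAMP few of these listed genes were called. Pln, which encodes the calcium pump inhibitor phospholamban, fell by 1.12 in normal ECs. Foxf1, a factor of mesenchyme and endothelium, rose in all 3 tissues, with log2 changes of 1.204 (normal), 1.15 (MMTV-PyMT) and 1.37 (implanted). Steap4 and Art3 rose in implanted ECs, by 1.71 (SE 0.185, adjusted p 2.08e-06 in limma) and 1.31 (SE 0.186). Steap4 went from 25.3 ± 5.35 to 85.6 ± 22.0 FPKM there, while Rgs5 in the same libraries was not called. Myocd in normal ECs was 3.73 ± 0.134 FPKM with PBS and 1.93 ± 0.299 with cGAMP, a log2 change of -0.69 that passed the adjusted test (p 0.000565 in limma) without reaching 2-fold. Of the 17 other smooth muscle genes, 6 passed that test in the lower direction in normal ECs and 0 in the higher, where 18.2% of all genes passed in the lower direction, with a median of -0.36 beside -0.04 over all genes.

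The signals that recruit mural cells come from both sides of the vessel wall. Of 17 such ligands and receptors, 8 were called lower in MMTV-PyMT ECs under PBS and 0 higher, and 6 were lower and 2 higher in implanted ECs. Among all genes 7.67% (MMTV-PyMT) and 5.71% (implanted) were called lower. Jag1, the Notch ligand that ECs present to Notch3, fell from 56.8 ± 0.545 FPKM by 2.32 and 1.28. Edn1, the constrictor endothelin 1, fell from 46.7 ± 5.57 FPKM by 3.43 and 1.71, and S1pr3 and Ednra, receptors of contractile signals, Pdgfd, Pdgfa, Cdh2 and Angpt1 were called in at least 1 tumour. Angpt2, an angiopoietin that loosens mural contact, rose in implanted ECs, from 14.5 ± 1.60 to 65.7 ± 8.91 FPKM, as did Tgfb1 (1.11). Pdgfb, the ligand of Pdgfrb, was at -0.78 in MMTV-PyMT and 0.80 in implanted ECs, neither reaching 2-fold. S1pr1, the most abundant of the list, fell by 1.63 in MMTV-PyMT ECs. Ednrb and Tgfbr2, next in abundance when averaged over all libraries, were not called. With cGAMP, Edn1 fell by 1.86 and Hbegf rose by 1.44 in normal ECs, and Hbegf (1.21) and S1pr3 (1.19) rose in implanted ECs.

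Close relatives of the 7 genes were read as well, with Rgs4 and Actg2 repeated from the lists above. Of 17 paralogs 14 were listed, and under PBS 3 were called lower in MMTV-PyMT (Rgs4, Rgs2 and Actg2) and 1 lower (Rgs4) and 1 higher (Actg1) in implanted ECs. The shares of all genes called lower there were 7.67% and 5.71%. The cytoplasmic actin Actb was at 0.25 and 0.45 and the non-muscle myosin Myh9 at -0.48 and -0.11, beside -3.20 and -2.93 for Acta2 and -3.90 and -4.12 for Myh11. Vim, the filament gene related to Des, was at -0.77 and 0.72. The skeletal and cardiac paralogs Acta1 and Actc1 were not listed. Rgs16 rose with cGAMP in normal (1.30) and MMTV-PyMT ECs (1.05).

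The genes whose log2(FPKM + 1) followed each member most closely over the 18 libraries were found by Pearson correlation, as a description in which the libraries of a tissue stand together. Myh11 was closest to Pde3a (r = 0.995), Ccdc3 (0.992), Tpm2, Galnt16 and Tagln (0.991 each). Tagln was closest to Tpm2 (0.994), Galnt16, Myh11, Scn4b and Cadm3, and Acta2 to Tagln (0.987), Galnt16, Tpm2, H2-M9 and Id4. Cnn1 stood with a different set, led by Cdh2 (0.978) and followed by Bcam, Abat, Fst and Klhl29. Rgs5 was closest to Enpep (0.959), Cygb, Vtn, Enpp2 and Htra1, and Pdgfrb to Angptl2 (0.98), Clstn2, Ddr2, Kcne4 and Slit3. Des was closest to Synpo2 (0.987), Atp1b2, Myom1, Cpe and Kirrel. No gene was shared between the 5 listed for Rgs5 and those of any smooth muscle gene, but Rgs5 shared none with Pdgfrb either. Rgs5 itself correlated with the 4 smooth muscle genes at 0.843 (Cnn1) to 0.916 (Myh11), and with Pdgfrb at 0.885. Ccdc3, for example, stood at 37.8 ± 1.02 FPKM in normal ECs under PBS, beside 2.03 ± 0.708 (MMTV-PyMT) and 1.66 ± 0.454 (implanted), and Enpep at 17.3 ± 2.04, 3.78 ± 0.948 and 1.55 ± 0.508.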

How the data were processed

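RNA-seq was performed on 18 libraries of sorted ECs, 3 in each of 6 groups, with 9114649 to 12113336 recovered reads each. Per the labels and the methods of the study, reads were checked with FastQC, aligned to mm10 with STAR 2.7 and counted with HTSeq, and the authors deposited FPKM values per gene. Libraries were strand-specific, and the strand setting of the counting and the annotation were not given in the sources used here. The file was therefore tested against GENCODE M21 exon lengths (GRCm38): values of 15803 of 16012 genes with 1 length (98.69%) were whole reads in every library (tolerance 0.02 read below 50 reads and 0.04% above). Depth limits the counting error only, and intervals come from the fit. Column names without a tissue were assigned to the normal groups, since no other columns remained for them.

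FPKM was analysed as log2(FPKM + 1) for 13983 genes with FPKM of at least 1 in at least 3 libraries (2265 were below). limma 3.58.1 in R 4.3.3 (trend, 2-sided) fitted 6 group means to all 18 libraries and tested 12 comparisons, with Benjamini-Hochberg adjustment over all genes. A gene was called at an adjusted p under 0.05 and a 2-fold change. The script was tested on simulated data. One gene counted in a list is not reported here by name or in a figure. Named were the 7 genes, from each list the 3 most abundant genes and those called, and the 5 genes most correlated with each member. The members and lists were chosen with earlier results of these data known. Alternatives covered the pseudocount, filters, scaling, quantile normalization, voom on recovered reads, a replicate block, a fit with only the groups compared and each library left out. Promoter sequences were from RefSeq (GRCm38.p6), with windows for Acta2, Cnn1, Rgs5 and Des used here.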

Additional observations from a re-analysis of the deposited data

How the results depend on the processing

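Of 28 other settings, 18 of them leaving out 1 library, all kept the count of called members in the tumour comparisons with normal ECs within 1.5 times and in the cGAMP comparisons at 0. The count for implanted against MMTV-PyMT ECs under cGAMP, 0 by the rule used, became 1 (Cnn1) with a pseudocount of 0.1, with endothelial scaling, with voom on recovered reads and with no fold limit. It ranged from 0 to 1 as each library was left out, and was 1 without MMTV-PyMT cGAMP library 1 (Cnn1 -1.12), without MMTV-PyMT cGAMP library 2 (-1.09) and without implanted cGAMP library 2 (-1.10). The same count under PBS became 1 with endothelial scaling (Rgs5, -1.05) and with no fold limit (Des, 0.60). The smooth muscle minus pericyte level became -3.43 in MMTV-PyMT PBS, -3.65 in implanted PBS and -4.11 in implanted cGAMP libraries with a pseudocount of 0.1, which widens differences of weakly expressed genes by construction, and -3.20 in implanted PBS libraries with endothelial scaling. With endothelial scaling Rgs5 in MMTV-PyMT against normal under cGAMP came to -0.92. Pdgfrb in implanted against normal ECs under cGAMP reached 2-fold under 8 settings, 3 of them with 1 library left out, and fell by up to 1.48 there. The signs of 85 member changes turned, none of them called either way. Scaling by total reads shifted the median of all genes by -0.37 in implanted against normal ECs under cGAMP. Where no cause is given, the cause was not tested.

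Libraries with the same replicate number showed no shared deviation: their correlations ran from -0.345 to 0.294 with a median of -0.013 over 45 pairs. Pairs with other numbers had a median of 0.010. With 3 libraries per group, this cannot exclude that equal numbers came from 1 experiment. With the replicate number as a block the counts of called members were 7 and 7 under PBS, 7 and 6 under cGAMP against normal, and 0 elsewhere, the same as without it. Counts of 1 to 86 reads for Cnn1 in the tumour libraries limit what can be said of that gene.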
